A study of Macaca fascicularis with 80 samples.

Results

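The genes described here are 150 genes of macaque blood that fell within 24 h of each of 3 doses of IL-15/IL-15Ra and were back near or above the starting level before the last dose. They were picked by value from a count table of 38550 genes. Counts were scaled to the library total as CPM, that is, counts of the gene per 1 M counts of its library (M, mega), and 9939 genes with a mean of at least 5 CPM over 80 libraries were kept. The level of a gene is log2(CPM + 1) minus the median of that library over the kept genes, so that a change of -1 is a 2-fold drop for all but low genes. A gene was taken when its mean level fell by 0.3 or more from day 0 to day 1, from day 3 to day 4 and from day 7 to day 8, and when its day 7 mean was no more than 0.15 under day 0. This was met by 182 genes, and the 150 with the lowest mean of the 3 changes are the members, 1.51% of the genes kept.

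Whole blood was drawn from 8 cynomolgus macaques, 4 females and 4 males, on days 0, 1, 3, 4, 7, 8, 10, 14, 17 and 21, and each sample gave 1 bulk RNA library. Every animal received the complex of interleukin 15 with its receptor alpha chain in 3 rising doses, of 5 µg/kg (day 0), 10 µg/kg (day 3) and 15 µg/kg (day 7). Day 0 blood carries a dose of 0 in the labels and is the only baseline, and every later sample comes from a dosed animal, so dose, order of dosing and time cannot be told apart. Blood of days 3 and 7 is labelled with the dose before and was read as drawn ahead of the dose of that day, which the labels do not state. Library totals ran from 17.09 M to 80.22 M counts, with 24.3 M as the median. Run and library tags come from the column names of the counts, and what they stand for is not stated. Another run tag than that of the rest is on 8 libraries, 3 of day 10 and 5 of day 14. Where a run is named below, this tag is meant.

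Interleukin 15 is a cytokine of the innate and adaptive immune system. It is presented on its alpha chain to cells that bear the beta chain and the common gamma chain of the receptor, above all natural killer cells and memory CD8 T cells, and it sustains their survival and division. Dosing of primates with IL-15 is known for an early, passing drop of lymphocytes in the blood that is followed by their expansion. The identifiers of the count table are not paired with gene names in the sources used here, so the members are given by rank and value, with 4 identifiers as examples, and cell type markers were not analysed. In whole blood, fewer cells of a type and less RNA per cell cannot be told apart.

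Rare transcripts were kept out by the filter on mean CPM. The members' mean level over all libraries ran from 5.0 to 1095 CPM. Its median was 29.3 CPM, against 35.9 CPM for all kept genes, and 23 members were above 100 CPM. Together they made up 0.88% of the counts on day 0 and between 0.188% and 2.22% over the 80 libraries. The order by mean change put the lowest member at -2.31, the median member at -0.86 and the last one, of rank 150, at -0.57, while the first gene left out stood at -0.56. Within 0.05 of the -0.3 limit lay 32 genes just inside, with a median mean change of -0.52, and 60 just outside, with one of -0.45. The condition on day 7 kept out 7 of 189 genes that fell after every dose.

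After the first dose the members' changes, which chose them and are given as a description, ranged from -2.57 to -0.30 with a median of -0.60. After the second dose they ranged from -1.42 to -0.33 with a median of -0.70. After the third they ranged from -2.97 to -0.56 with a median of -1.35. The third dose gave the largest of the 3 falls in 149 of 150 members and the first dose in the other 1. Falls of more than 1 log2 unit were seen in 43, 20 and 126 members after dose 1, 2 and 3, while the median of all kept genes lay between -0.01 and 0.01 each time. Members with a large fall after one dose also had one after the others, with Pearson's r across the 150 members of 0.80 for doses 1 and 2, 0.87 for doses 1 and 3 and 0.85 for doses 2 and 3. Genes are not independent replicates and were selected on all 3 values, so these r values carry no test.

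Not every member fell in every animal. Day 1 was under day 0 in 8 of 8 animals for 60 members, where 3.31% of all kept genes did so. For day 4 against day 3 this held for 92 members (3.08% of kept genes) and for day 8 against day 7 for 119 members (8.19%). A fall in all 8 animals after each of the 3 doses was seen for 37 members. How many of all kept genes did so was not counted. Complete separation, with all 8 later values under all 8 earlier ones, was found for 4 members after dose 1 (0.101% of kept genes), for 0 after dose 2 (0.0201%) and for 39 after dose 3 (0.493%). Nothing is read from these shares, since the same values chose the members.

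**Figure D1:**
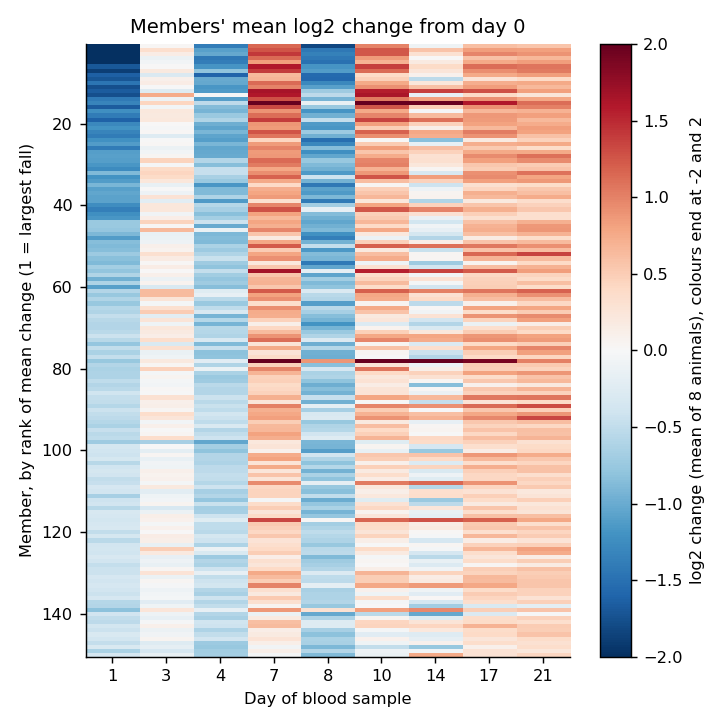
Mean log2 change from day 0 (8 animals, colour, cut at -2 and 2) of the 150 members, in rows by rank of their mean fall, on the 9 later days. The columns of days 1, 4 and 8 are blue nearly throughout, with medians of -0.60, -0.61 and -0.79, and those of days 7, 17 and 21 are red, with medians of 0.67, 0.54 and 0.57.

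ENSMFAG00000040797 had the lowest mean of the 3 changes. Its level on day 0 ran from 11.2 to 34.7 CPM with a median of 29.2 CPM, and on day 1 from 0.537 to 16.5 CPM with a median of 2.68 CPM. It was lower in 8 of 8 animals, and the days overlapped, since animal 39095, the lowest on day 0, lay under the 16.5 CPM of animal 39098 on day 1. On day 3 it was back at 32.7 CPM (7.64 to 44.3), and on day 4 at 7.67 CPM (2.79 to 27.99). From day 7 to day 8 it went from 55.4 CPM (38.3 to 92.6) to 3.84 CPM (1.22 to 19.6), and the lowest day 7 value lay above the highest day 8 value. The log2 changes were -2.57 ± 1.39, -1.41 ± 0.75 and -2.97 ± 1.31 (SD, n = 8) after doses 1, 2 and 3.

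ENSMFAG00000043077, of rank 31, had the highest mean level of all members. Its median was 883 CPM on day 0 (732 to 1176.5) and 392 CPM on day 1 (127 to 1092), and animals 39098 and 39103 marked the upper and lower end on day 1. It fell in 6 of 8 animals after dose 1 and in 8 of 8 after doses 2 and 3. Before the third dose it stood at 1634 CPM (1067 to 2172), where its day 0 range reached 1176.5 CPM, and a day later at 432 CPM (89.45 to 1125). Only animal 39097, at 1125 CPM on day 8, still lay within the day 7 range of the group.

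The member of rank 2 was also abundant, with a mean of 610 CPM, and changed by -2.56, -1.42 and -2.69 after the 3 doses, lower in 8 of 8 animals each time. Ranks 3, 4 and 5 changed by -2.53, -2.49 and -2.17 after dose 1. In the 50 members of highest rank the median change was -1.24, -0.94 and -1.95 after doses 1, 2 and 3. It was -0.58, -0.69 and -1.34 in ranks 51 to 100, and -0.39, -0.49 and -1.02 in ranks 101 to 150. By these medians ranks 1 to 50 fell more after dose 1 than after dose 2, and both lower groups the other way round. The ranks were set by the mean of the same 3 changes, so nothing is read from this contrast. Over all 150, 75 fell more after dose 2 than after dose 1.

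**Figure D2:**
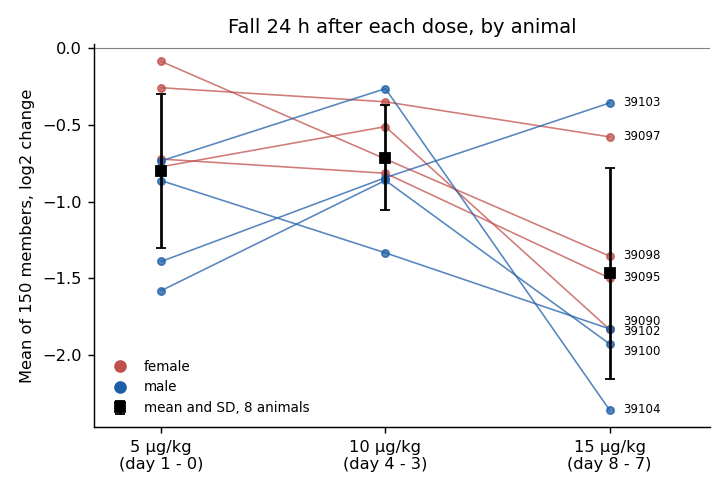
Mean log2 change of the 150 members in each animal 24 h after doses of 5, 10 and 15 µg/kg, with the mean and SD of 8 animals in black. The means are -0.80, -0.71 and -1.47, and at the third dose animals 39103 and 39097 stay near the top at -0.36 and -0.58.

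The animals differed in how far the members fell. Averaged over the 150 members, the change after dose 1 was -0.80 ± 0.50 (SD, n = 8), with the deepest falls in animals 39100 (-1.58) and 39103 (-1.39). Animals 39097 (-0.26) and 39098 (-0.09) changed least, and in 39098 only 83 of 150 members were lower on day 1. After dose 2 the change was -0.71 ± 0.34, from -1.33 in animal 39102 to -0.26 in animal 39104. After dose 3 it was -1.47 ± 0.69, from -2.36 in animal 39104 to -0.36 in animal 39103. The order of the animals was not kept, since 39104 fell least after dose 2 and most after dose 3, and 39103 was second deepest after dose 1 and shallowest after dose 3. The drop of animal 39103 after dose 3 started from 0.04 above its own day 0, whereas the other 7 animals stood 0.32 to 1.14 above theirs on day 7.

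When the rule was applied to 7 animals at a time and the 150 genes found were read in the animal left out, between 129 and 143 of them were members. The change in animals left out after dose 1 ran from -1.47 in 39100 to -0.03 in 39098, and in 39098 75 of 150 genes, 50%, were lower. After dose 2 it ran from -1.24 in 39102 to -0.26 in 39104, with at least 83.3% of the genes lower in each animal. After dose 3 it ran from -2.34 in 39104 to -0.32 in 39103, with at least 80% lower in each. The mean change was negative in each animal set aside, and weakest at -0.03 in 39098 after dose 1. How many of all kept genes were lower in the same animals was not counted, so nothing is read from the percentages.

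In the 4 females the mean change of the members was -0.46 ± 0.34, -0.60 ± 0.21 and -1.32 ± 0.53 (SD, n = 4) after doses 1, 2 and 3. In the 4 males it was -1.14 ± 0.41, -0.83 ± 0.44 and -1.62 ± 0.87. The rule used means over all 8 animals and not the difference between the sexes. The rule's 3 changes and this difference come from the same 48 libraries, however. Across the 150 members the difference had a Pearson's r of 0.52 with the mean change that ranked them. The members' differences are therefore not independent of the choice and are a description. Every gene was tested for the male minus female difference of the change, averaged over the 3 doses. Of the 150 members 0 were called at an adjusted p under 0.05 in edgeR, as were 0.0% of 16054 genes in either direction, and the lowest adjusted p of a member was 0.42. DESeq2 called 1 member, lower in males, beside 2 genes higher and 1 lower in males among all 16054. At an unadjusted p under 0.05 there were 30 members (20%) against 7.0% of all genes tested. The members' median difference was -0.32, that of all genes tested 0.02, and 132 of 150 members had the deeper fall in males. Without animal 39097 the median difference was -0.18, and 8 members and 570 genes in all had an unadjusted p under 0.05. Without 39100 the median was -0.25, with 12 members and 2053 genes. Leaving out any other animal gave medians of -0.44 to -0.29, and 0 calls in each case. On day 8, the 3 libraries above 40 M all came from males, and the part of depth in the difference was not tested, since without the animals with such libraries only 1 male is left. With animal 39097, whose day 7 library was above 40 M, also left out, the members' median difference was -0.48. In simulated libraries of this design edgeR recovered 92% of genes with a 2-fold sex difference, alike in all animals of a sex. The simulated spread followed the trend over genes of similar level and not each gene's own spread. Differences were planted only in genes above a minimum level. The 92% is therefore not the recovery in the real libraries, where ENSMFAG00000043077 differed by -0.86 (SE 0.31) at an edgeR adjusted p of 0.685. The members' own differences ran from -1.08 to 0.44, and recovery of smaller or uneven differences was not simulated.

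Beside the falls, the share of counts in the 50 most abundant genes rose in the group mean from 15.1% on day 0 to 15.7% on day 1, from 15.6% on day 3 to 17.0% on day 4 and from 15.5% on day 7 to 18.4% on day 8. The library median of log2(CPM + 1), which is subtracted from each level, was 5.17 on both day 0 and day 1, 5.22 and 5.06 on days 3 and 4, and 5.24 and 4.90 on days 7 and 8. Their part in the result was not tested. Without subtracting that median the mean changes of the members were -0.81, -0.86 and -1.81 after the 3 doses, and the rule had fixed the direction of the values with it. All libraries of days 0 to 8 share 1 run tag, and 1 day 7 library, of animal 39095, has another library tag. Leaving that animal out gave a change of -1.46 after dose 3.

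**Figure D3:**
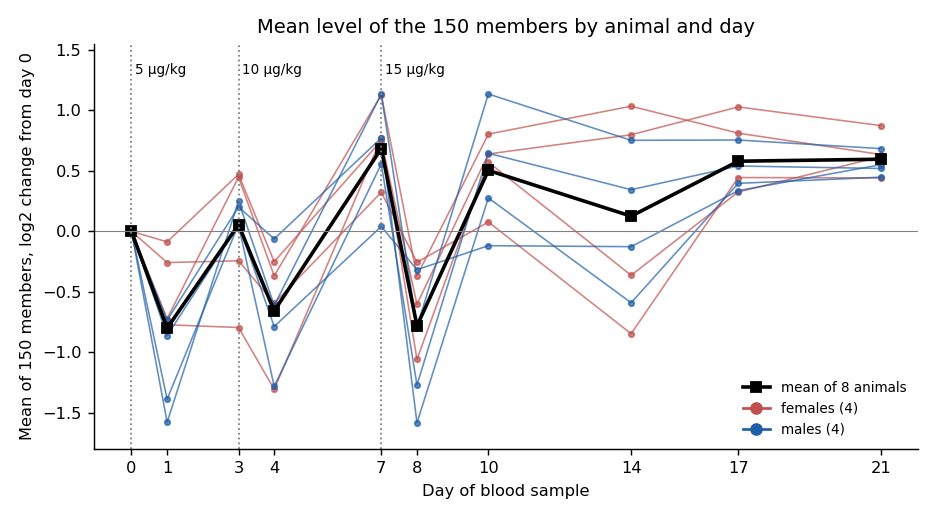
Mean log2 level of the 150 members relative to the animal's own day 0, by day of blood sample, for 4 females (red), 4 males (blue) and the mean of 8 animals (black); dotted lines mark the doses. The mean moves between -0.80 on day 1 and 0.68 on day 7, and the animals lie between 0.44 and 0.87 on day 21.

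Between the doses the members came back within days. Their mean in each animal, relative to that animal's day 0, was 0.05 ± 0.41 (SD, n = 8) on day 3 and 0.68 ± 0.37 on day 7. On day 3, 82 members were above day 0 and 68 below, with a median of 0.02, against -0.01 for all kept genes. Animal 39090 had not recovered by then, at -0.80 after -0.77 on day 1, and 39097 stood at -0.24, while the other 6 animals lay between 0.05 and 0.47. By day 7 all 8 animals were above day 0, from 0.04 to 1.14. The day 7 mean exceeded that of day 0 for 146 members (48.6% of kept genes did so), and for 58 members it did so in 8 of 8 animals (6.01% of kept genes). Day 3 entered the rule as the start of the second fall, and day 7 as that of the third and through its lower limit. The levels of both days are therefore a description. Relative to day 0 the third fall ended at -0.78 ± 0.49 on day 8 and the first at -0.80 ± 0.50 on day 1, and the third was measured from the higher day 7 level.

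After the last dose the members' mean rose from day 8 to day 10 in 8 of 8 animals. On day 10 it stood at 0.50 ± 0.41 relative to day 0. It was above day 0 in 7 of 8 animals, and animal 39103 stood at -0.12. On day 14 the mean was 0.13 ± 0.71 and the animals parted. Animals 39095, 39098, 39100 and 39102 were 1.04, 0.80, 0.75 and 0.34 above their day 0. Animals 39097, 39104, 39090 and 39103 were at -0.85, -0.59, -0.36 and -0.13. On day 17 all 8 were above day 0 at 0.58 ± 0.26, and on day 21 at 0.60 ± 0.14, the smallest spread of any day after day 0. As a share of all counts the members went from 0.88% on day 0 to 1.40% on day 10, then to 1.00% (day 14), 1.44% (day 17) and 1.43% (day 21).

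Most members ended above their starting level. The mean of day 10 was above day 0 for 130 members (47.9% of kept genes), that of day 17 for 147 (50.4%) and that of day 21 for 148 (50.1%). In 8 of 8 animals this was so for 36 members on day 10 (10.0% of kept genes), 84 on day 17 (8.07%) and 105 on day 21 (9.56%). On day 21 the changes from day 0 ran from -0.20 to 1.35 with a median of 0.57. Day 0 was part of the rule, so these comparisons carry no test.

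Days 10, 14, 17 and 21 did not enter the choice of members beyond the filter on mean CPM, and changes among them were tested for all genes with edgeR's quasi-likelihood test, with the animal as a block and trimmed-mean (TMM) scaling between libraries. From day 10 to day 14, 14 members fell and 1 rose at an adjusted p under 0.05. Of all 16054 genes tested, 0.99% fell and 0.891% rose, and among the genes with a mean of at least 5 CPM 1.24% and 0.916%. The members' median log2 fold change was -0.42, against -0.03 for all genes tested and -0.02 for those of at least 5 CPM, and 134 of 150 members were lower on day 14. In 8 of 8 animals 13 members were lower, 8.67%, against 3.0% of kept genes. Of the 14 members that fell, 10 were among ranks 1 to 50, and their median change was -1.03.

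The count of calls, more than the size of the change, moved with the animals in the fit. The 15 calls became 2 without animal 39090, 39100 or 39102, where the members' medians were -0.31, -0.42 and -0.42 and the calls over all genes, 143 up and 159 down with every animal, were 30 and 42, 24 and 24, and 15 and 17. Without 39098, 39104 or 39095 there were 5, 6 and 30 calls, with medians of -0.49, -0.33 and -0.52. Over all genes these settings gave 39 up and 38 down, 56 up and 67 down, and 239 up and 214 down. Depth and run moved with the days: 5 libraries of day 10 came from the shared run and had 35.7 to 80.22 M counts, and the day 14 libraries of those same animals carry the other run tag with 17.09 to 24.5 M. In animals 39102, 39103 and 39104 the run tags lie the other way round. No animal has both days in 1 run, and with run as a term in the fit 1 member rose and 15 fell, beside 304 genes up and 204 down in all. Without the 4 animals whose day 10 library exceeded 40 M, 0 of 150 members and 0 of 16046 genes tested were called by edgeR in 8 libraries, with 22 members and 1944 genes at an unadjusted p under 0.05, and the members' median change was -0.27.

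**Figure D4:**
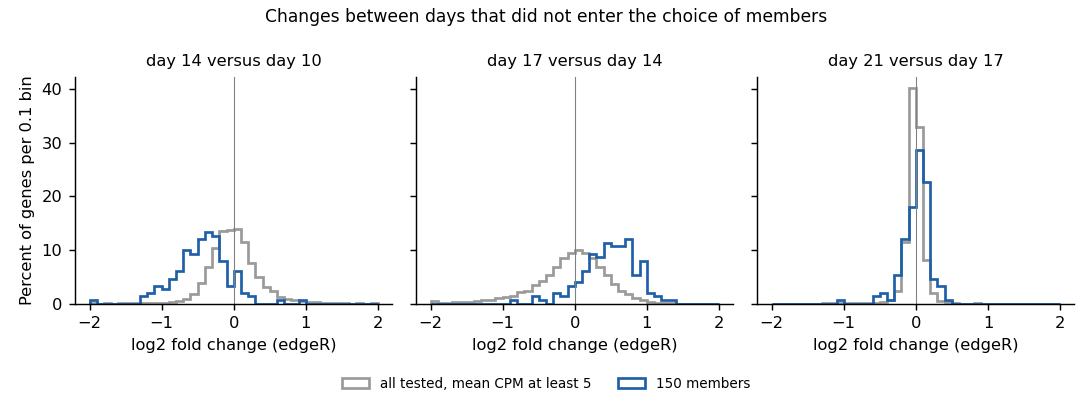
Percent of genes per 0.1-wide bin of edgeR log2 fold change between late days, for the 150 members (blue) and all tested genes with a mean of at least 5 CPM (grey). The members' medians are -0.42, 0.52 and 0.04 in the 3 panels, where those of the grey curves are -0.02, 0.003 and -0.01.

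From day 14 to day 17, 55 of 150 members rose and 1 fell at an adjusted p under 0.05, where 9.23% of all genes tested were higher and 10.8% lower, or 12.4% and 15.2% of those with at least 5 CPM. The median log2 fold change of the members was 0.52, against 0.06 for all genes tested, and 136 of 150 were higher on day 17. In 8 of 8 animals 32 members were higher, 21.3%, against 8.71% of kept genes. The 55 were spread over the ranks, with 16 in ranks 1 to 50, 21 in ranks 51 to 100 and 18 in ranks 101 to 150. Their median change was 0.80.

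Here too the calls changed more than the fold. Without animal 39102 or without animal 39103 edgeR called 0 of 150 members and 0 genes in all, with 88 and 80 members and 5274 and 4857 genes at an unadjusted p under 0.05. The members' medians were then 0.57 and 0.50, with 137 and 135 of 150 higher on day 17. Without 39090, 5 members were called, at a median of 0.46, beside 40 genes up and 75 down in all. Without 39097, 21 were called, at a median of 0.39, beside 375 genes up and 508 down. The 5 day 14 libraries of the other run belong to animals 39090, 39095, 39097, 39098 and 39100. In the 3 animals whose libraries of both days carry the shared tags 14 members rose and 0 fell, with a median change of 0.62, beside 231 genes up and 770 down in all. With run as a term 15 members rose and 1 fell, also with a median of 0.62, beside 961 genes up and 1726 down. Day 14 libraries also had 18.8% of their counts in the 50 most abundant genes, against 16.6% on day 10 and 15.9% on day 17, and a lower library median of log2(CPM + 1), 4.93 against 5.17 and 5.27. By animal, that share on day 14 ran from 15.8% in 39100 to 22.1% in 39090. The part of these values in the day 14 dip was not tested. Scaling by library totals lowered the median of all genes by 0.26 from day 10 to day 14 and raised it by 0.43 from day 14 to day 17. Under it 36 members fell and 0 rose over the first interval and 109 rose and 0 fell over the second, with medians of -0.64 and 0.88. Over all genes that scaling gave 113 up and 530 down over the first interval and 5247 up and 699 down over the second.

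Between days 17 and 21 edgeR called 0 of 150 members and 0.0% of all genes tested in either direction, with a lowest adjusted p of 0.82 among the members, and DESeq2 called 2 members, both lower, beside 3 genes higher and 9 lower among all 14186 it tested. At an unadjusted p under 0.05 there were 24 members, 16%, and 684 genes in all, 4.26%. The median log2 fold change of the members was 0.04, from -1.03 to 0.46, and the mean over members changed by 0.02 ± 0.17 (SD, n = 8).

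Day 21 was set against day 10, the ends of the late period. Of the members 27 were higher and 11 lower on day 21, 18% and 7.33%, where 6.91% and 10.3% of all genes tested and 8.66% and 14.6% of those with at least 5 CPM were. Under library totals, which moved the median of all genes by 0.14, 43 were higher and 8 lower, beside 2394 genes higher and 1096 lower in all. The median of the members was 0.09, and the mean over members was higher in 5 of 8 animals, with a change of 0.09 ± 0.35 (SD, n = 8). Without animal 39103, 18 members were higher and 22 lower, with a median of 0.002, beside 870 genes higher and 1404 lower in all. Without animal 39097, 12 members were higher and 9 lower, with a median of 0.04, beside 676 genes higher and 1146 lower in all. Without the 4 animals that had over 40 M counts on day 10 only 2 were called, 1 in each direction, beside 125 genes higher and 465 lower in all. In the 5 animals with both libraries of the shared run 14 were higher and 18 lower, beside 633 and 1057 genes in all, and with run as a term 10 and 11, beside 448 and 793.

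The members called on either side are described by the medians of their change from day 0. They were chosen for the change from day 10 to day 21, which sets the order of those 2 days, so the courses are a description. The 27 that were higher on day 21 came mostly from the lower ranks, with 13 in ranks 101 to 150 and 4 in ranks 1 to 50. They had fallen by 0.48 after dose 1, stood at 0.27 above day 0 on day 7 and at -0.004 on day 10, and reached 0.37 on day 17 and 0.48 on day 21. The 11 that were lower on day 21 had fallen by 1.19 after dose 1, stood at 1.39 above day 0 on day 7 and at 1.36 on day 10, and then stepped down over 1.10 on day 14 and 0.90 on day 17 to 0.65 on day 21. On day 8 they were only 0.34 under day 0, where the 150 members together had a median of -0.79. Among the 11, 7 were in ranks 1 to 50 and 1 in ranks 101 to 150.

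The member of rank 78 had the lowest adjusted p of the 38 and was singled out after its values were seen. Relative to day 0 it was at -0.76 on day 1 and -0.23 on day 4, 2.24 on day 7 and still 0.88 on day 8. It reached 2.51 on day 10 and 2.68 on day 14 and came down to 1.90 on day 17 and 1.00 on day 21. From day 10 to day 21 it fell by 1.70 on the log2 scale (SE 0.21, edgeR adjusted p = 0.000594). The call was lost only without the replicate block (adjusted p = 0.052) among 16 other settings. Together with rank 117, at 0.02, it was among 3 members whose day 8 mean lay above day 0.

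**Figure D5:**
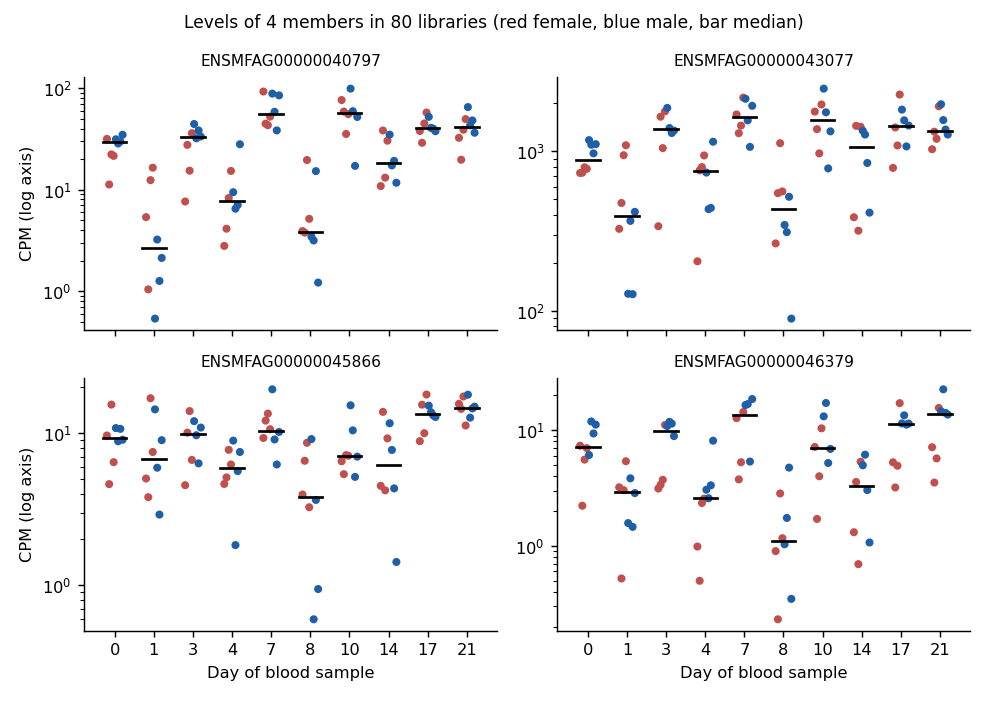
CPM on a log axis of 4 members in the 80 libraries by day, females red and males blue, with the median of 8 animals as a bar. For ENSMFAG00000040797 the medians drop from 29.2 to 2.68 CPM by day 1 and from 55.4 to 3.84 CPM between days 7 and 8, and for ENSMFAG00000046379 the median of day 14, 3.30 CPM, lies under those of days 10 and 17, 7.03 and 11.3 CPM.

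ENSMFAG00000046379, of rank 24, showed the largest called rise from day 14 to day 17. Its median was 7.03 CPM on day 10 (1.71 to 17.2), 3.30 CPM on day 14 (0.694 to 6.15), 11.3 CPM on day 17 (3.20 to 17.2) and 13.9 CPM on day 21 (3.53 to 22.6). It rose from day 14 to day 17 by 1.35 (SE 0.28, edgeR adjusted p = 0.0188), in 7 of 8 animals, and the days overlapped. Under 15 other settings the rise was 1.17 to 1.72 and was called in 11 of them, with adjusted p from 8.32e-05 to 0.0588. Animal 39095 was the lowest on 8 of the 10 days, with 2.22 CPM on day 0 where the median was 7.18 CPM. Before the late days it had gone from 13.6 CPM (3.76 to 18.6) on day 7 to 1.10 CPM (0.231 to 4.75) on day 8.

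ENSMFAG00000045866, of rank 145, had the largest called rise from day 10 to day 21. Its median was 7.06 CPM on day 10 (5.16 to 15.3), 6.13 CPM on day 14 (1.42 to 13.8), 13.4 CPM on day 17 (8.86 to 17.95) and 14.8 CPM on day 21 (11.2 to 17.9). Higher on day 21 in 8 of 8 animals, it rose by 0.83 (SE 0.15, edgeR adjusted p = 0.00435), although the 15.3 CPM of animal 39100 on day 10 lay inside the day 21 range. The rise was called in 15 of 16 other settings, with adjusted p from 1.13e-05 to 0.0775, and lost without the animals above 40 M. It also rose from day 14 to day 17 by 0.76 (SE 0.22, edgeR adjusted p = 0.0358), in 8 of 8 animals, a call kept in 8 of 15 other settings with adjusted p from 0.00685 to 0.122.

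The other pair of named members had its lowest late median on day 14 as well. ENSMFAG00000040797 went from 57.1 CPM (17.2 to 98.9) on day 10 to 18.3 CPM (10.9 to 38.3) on day 14 and 40.2 CPM (28.9 to 57.5) on day 17. It fell by 1.16 (SE 0.23, edgeR adjusted p = 0.0333), in 7 of 8 animals, and then rose by 0.71 (SE 0.18, edgeR adjusted p = 0.0249), in 7 of 8. The fall was called in 8 and the rise in 9 of 15 other settings, with adjusted p from 0.000197 to 0.363 and from 0.00319 to 0.0914. ENSMFAG00000043077 had medians of 1568 CPM (782 to 2473), 1060 CPM (318 to 1446) and 1432 CPM (788 to 2271) on these days. Its changes of -0.66 (SE 0.23) and 0.42 (SE 0.18) did not pass, with edgeR adjusted p of 0.124 and 0.123.

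The members also moved together between libraries of the late days. With the mean of each day and each animal removed from the 32 libraries of days 10 to 21, the median Pearson's r between 2 members was 0.64, and between any 2 kept genes -0.0002. Of the member pairs 74.6% had an r over 0.5, where 10.2% of all pairs did. With the mean of the members, 142 of 150 members had an r over 0.5, and so did 18.2% of the other kept genes. In the 24 late libraries of the shared run the median r between members was 0.54, and 130 members had an r over 0.5 with their mean. These r values share library depth and the scaling by library median, so they are given as a description without a test. Of the 10 days, day 14 had the widest spread of the members' mean between animals, an SD of 0.71.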

How the data were processed

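Bulk RNA sequencing of whole blood of 8 animals on 10 days gave 80 libraries. An RNAdvance Blood kit served for RNA and KAPA HyperPrep reagents for mRNA libraries, per the labels' protocols. The authors deposited raw gene counts, whole reads per gene, in a table of 38550 genes and in a second one of 35432 genes under other identifiers, which served only as an alternative. The sources used here do not give the aligner, counter, genome build or strandedness, so identifiers that share reads could not be traced. Of the identifiers, 0 matched the gene table used for names, so the planned marker lists were not analysed, and 4 identifiers were named by the rule set for that case: the member with the lowest mean change, the one with the highest CPM and the largest called rises on day 21 versus 10 and day 17 versus 14.

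The members, lists and tests were chosen with earlier results of these data known. Members were chosen on log2(CPM + 1) with a pseudocount of 1, which understates changes of low genes. Tests used edgeR 4.0.16 in R 4.3.3 (glmQLFit, glmQLFTest) on genes kept by filterByExpr grouped by day, with TMM factors over 80 libraries, 16 libraries per pair of days (48 for sex), the animal as a block and Benjamini-Hochberg adjustment over all genes tested. A gene is called at an adjusted p under 0.05. All 150 members passed the count filter. Animal numbers in the labels give the pairing, and on the late days deviations from the day means had a median r of 0.442 within an animal and -0.07 between animals. On simulated day 21 versus day 10 libraries of 16054 genes, 98.5% of 200 genes changed 2-fold were recovered. Both simulations took the spread from the trend over genes, not each gene's own, and changed only genes above a minimum level. They do not give the recovery in the real libraries. Alternatives were DESeq2 1.42.0, other scalings, no filter, no block, animals left out, depth, run tags and settings of the rule. Run tag as a term was added after seeing the data.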

Additional observations from a re-analysis of the deposited data

Results flagged for a closer look

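In 56 groups of 8 animals (the members' mean change per dose, day and late step, and the 4 named members by day), a value was marked when its gap to the nearest other animal was above Dixon's 95% critical value as a share of the group's range. Chance marks about 1 in 20 groups, and 3 were marked. Levels are log2(CPM + 1) minus the library median. ENSMFAG00000040797 was at -1.52 on day 0 in animal 39095, where the other 7 animals lay between -0.66 and -0.10. ENSMFAG00000046379 was also low on day 0 in animal 39095, at -3.45, with the others between -2.49 and -1.67. ENSMFAG00000043077 was at 3.44 on day 3 in animal 39090, with the others between 4.88 and 5.67, and in this animal the mean of the 150 members was 0.80 under its day 0 on that day. No mean over members was marked.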

How the results depend on the processing

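The 15 members called between days 10 and 14 became 44 with DESeq2, 36 with library totals and 33 without the low-count filter. They became 0 without the animals above 40 M and 2 to 30 with 1 animal left out. Over all genes the calls, 143 up and 159 down, became 1211 and 663 with DESeq2 and 113 and 530 with library totals. Without the filter they were 317 and 282, and without the animals above 40 M 0 and 0. With 1 animal left out they ran from 15 up and 17 down to 360 up and 336 down. The 56 called between days 14 and 17 became 109 with library totals, 14 in animals with the shared tags and 16 with run as a term. With 1 animal left out they became 0 to 73. Over all genes the calls, 1481 up and 1735 down, became 5247 and 699 with library totals. They were 231 and 770 in animals with the shared tags and 961 and 1726 with run as a term. With 1 animal left out they ran from 0 to 1639 up and 1972 down. For days 17 and 21, 0 became 2 with DESeq2, beside 3 genes up and 9 down in all. With 1 animal left out it became 0 to 1, the 1 without animal 39104, beside 0 genes up and 3 down in all. For the sex difference 0 became 1 with DESeq2, beside 2 genes higher and 1 lower in all. The 38 called between days 10 and 21 became 2 without the animals above 40 M and 21 with run as a term. With 1 animal left out they became 21 to 50. Over all genes the calls, 1109 up and 1655 down, became 125 and 465 without those animals and 448 and 793 with run as a term. With 1 animal left out they ran from 676 up and 1146 down to 1142 up and 1714 down. Dropping the replicate block, and with it the pairing by animal, left 2 members called for days 10 and 14, all lower. Over all genes 43 were then up and 55 down. For days 14 and 17 it left 9 members, all higher, beside 619 genes up and 1270 down in all. For days 10 and 21 it left 2 members, both higher, beside 229 genes up and 669 down in all. For days 17 and 21 and for sex, 0 stayed 0 for members and all genes. The rule took 182 genes, 112 with a mean of at least 20 CPM, 85 with a limit of -0.5 and 369 with one of -0.2, and 153 to 212 with 1 animal left out. The mean changes after each dose, whose sign the rule fixed, moved by less than 1 SD under the 11 alternatives run for each. ENSMFAG00000045866 changed by -0.11 from day 10 to day 14, and by -0.31 to 0.089 with 1 animal left out, highest without animal 39104, with no call. The causes of these shifts were not tested. No animal had days 10 and 14 in the shared run, days 17 and 21 had no library with another tag, and days 14, 17 and 21 had none above 40 M, so those settings were not run.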
